A study of Mus musculus with 8 samples.

Results

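The 10 genes described here, Hspa5, Hsp90b1, Pdia4, Pdia6, Calr, Canx, Dnajb9, Dnajc3, Herpud1 and Xbp1, encode chaperones of the endoplasmic reticulum (ER) and components or targets of the unfolded protein response. They were taken by symbol from a deposited table of read counts for 36255 mouse genes, and all 10 were among the 16542 genes with enough counts to be tested. The study compared knockout (KO) of Skp1a with the floxed, undeleted allele (fl/fl) in mouse embryonic stem cells (ES cells) and in day 2 embryoid bodies (EBd2), cell aggregates at an early step of differentiation. Skp1a encodes the adaptor that joins F-box proteins to the CUL1 ubiquitin ligase. Poly(A) RNA from 8 libraries was sequenced, 2 in each of 4 groups: Skp1a KO ES cells, Skp1a fl/fl ES cells, Skp1a KO EBd2 and Skp1a fl/fl EBd2, all grown in standard medium for ES cells or embryoid bodies. The labels number the libraries by lots 1, 2 and 12 and give neither the strain, the Cre, nor whether lots are separate cultures or clones, so the spread behind each p value may be technical alone. The tissue field of the labels calls every KO library ES cell and every fl/fl library embryoid body, against the titles. Groups follow the titles.

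Library totals ran between 21545868 and 23343471 counts in ES cells and between 7858452 and 10055667 counts in EBd2. Levels are given as CPM, the usual per-library rate of counts, with library sizes scaled by the trimmed mean of M values (TMM), and every adjusted p is from the edgeR quasi-likelihood test with the Benjamini-Hochberg correction over all tested genes, called under 0.05. Skp1a itself kept 72.8% of its fl/fl level in KO EBd2, a log2 fold change of -0.46 ± 0.04 (SE; adjusted p = 5.13e-07), and 85.9% in KO ES cells (-0.22 ± 0.03, adjusted p = 0.00073). Which exons are deleted is not stated, so its remaining reads do not check the deletion. Summed CPM of 6 epiblast markers was 328 and 338 for KO EBd2, against 182 and 191 for KO ES cells. It was 1825 and 1955 for fl/fl EBd2, against 217 and 222 for fl/fl ES cells, so that both EBd2 groups lay above their ES cells, the order that the titles give.

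The ER is where secreted and membrane proteins fold. Hspa5 encodes BiP, the Hsp70 chaperone of the ER lumen, which also holds the sensors IRE1, PERK and ATF6 inactive until unfolded proteins accumulate. IRE1 then splices Xbp1 mRNA into the form that encodes an active transcription factor, ATF6 is cut in the Golgi to release another, and PERK phosphorylates eIF2 alpha, which slows translation and favours that of ATF4. ATF6 and XBP1 induce chaperones and degradation factors through the ER stress element (ERSE), in which a CCAAT box bound by NF-Y is followed at a fixed distance by CCACG. Counts per gene hold no splice junctions, so Xbp1 splicing was not measured here.

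The promoter windows of the 10 genes were read from RefSeq (GRCm38.p6), 300 bases each, 250 before and 50 after the annotated start, in the direction of the gene. These are shown because the ERSE is the element through which ATF6 and XBP1 are known to act. The ERSE, spelled as CCAAT, any 9 bases and then CCACG, was searched on both strands and was held by 6 of the 10 windows, against 0.119% of 32851 windows of all genes. The 10 genes were chosen as ER chaperones and targets of ATF6 and XBP1, so a high share follows from that choice and is not a result. ERSE-II, spelled as ATTGG, any 1 base and then CCACG, was found in the Herpud1 window and in 0.0365% of all windows. The unfolded protein response element TGACGTGG was held by 0.676% of all windows and by 0 of the 10. Capitals mark the fixed letters of the ERSE in Hspa5 and Hsp90b1 and the whole ERSE-II in Herpud1. The Hsp90b1 window has 2 elements, of which the one nearer the start is on the reverse strand and reads CGTGG before ATTGG.
Hspa5 (chr2:34771840-34772139, plus strand): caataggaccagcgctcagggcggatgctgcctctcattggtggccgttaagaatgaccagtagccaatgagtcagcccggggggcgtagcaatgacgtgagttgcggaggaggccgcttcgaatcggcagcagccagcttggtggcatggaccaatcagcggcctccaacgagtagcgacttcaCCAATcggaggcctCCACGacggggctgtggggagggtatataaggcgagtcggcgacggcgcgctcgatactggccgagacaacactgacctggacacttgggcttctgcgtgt
Hsp90b1 (chr10:86705395-86705694, minus strand): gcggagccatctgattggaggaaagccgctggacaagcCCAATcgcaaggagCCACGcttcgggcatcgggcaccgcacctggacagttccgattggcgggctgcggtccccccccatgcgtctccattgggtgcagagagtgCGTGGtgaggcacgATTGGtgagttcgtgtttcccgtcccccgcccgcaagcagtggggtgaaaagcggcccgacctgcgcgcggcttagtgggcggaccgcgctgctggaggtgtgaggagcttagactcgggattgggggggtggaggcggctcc
Herpud1 (chr8:94386179-94386478, plus strand): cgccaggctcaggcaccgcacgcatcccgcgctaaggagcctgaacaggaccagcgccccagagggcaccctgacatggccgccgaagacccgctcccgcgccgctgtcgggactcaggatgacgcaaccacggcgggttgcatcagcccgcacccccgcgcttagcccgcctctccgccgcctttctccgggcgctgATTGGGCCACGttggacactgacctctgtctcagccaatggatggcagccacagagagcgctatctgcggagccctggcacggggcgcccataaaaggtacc

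The ERSE of the 4 other genes that hold one is shown alone with the same capitals, and the Calr element is on the reverse strand. The first base lay 162 bases before the start in Calr, 145 in Canx, 105 in Dnajc3 and 98 in Pdia6, against 65 in Hspa5. The ERSE-II of Herpud1 began 52 bases before its start.
Calr (chr8:84847075-84847093, minus strand): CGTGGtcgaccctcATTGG
Canx (chr11:50325800-50325818, minus strand): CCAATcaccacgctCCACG
Pdia6 (chr12:17266491-17266509, plus strand): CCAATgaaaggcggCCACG
Dnajc3 (chr14:118937827-118937845, plus strand): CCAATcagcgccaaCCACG

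Pdia4, Dnajb9 and Xbp1 held none of these elements in the window, which says only that these letters are not there. The windows of Dnajb9 and Xbp1, the genes with the largest changes between KO and fl/fl EBd2 described below, are given for comparison and are in lower case throughout.
Dnajb9 (chr12:44210019-44210318, minus strand): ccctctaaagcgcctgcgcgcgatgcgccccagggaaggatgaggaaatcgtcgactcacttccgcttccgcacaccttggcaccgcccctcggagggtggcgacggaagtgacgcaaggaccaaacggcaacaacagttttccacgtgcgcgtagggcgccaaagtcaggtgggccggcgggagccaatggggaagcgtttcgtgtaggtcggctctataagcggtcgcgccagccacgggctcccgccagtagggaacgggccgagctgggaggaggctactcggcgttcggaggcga
Xbp1 (chr11:5520391-5520690, plus strand): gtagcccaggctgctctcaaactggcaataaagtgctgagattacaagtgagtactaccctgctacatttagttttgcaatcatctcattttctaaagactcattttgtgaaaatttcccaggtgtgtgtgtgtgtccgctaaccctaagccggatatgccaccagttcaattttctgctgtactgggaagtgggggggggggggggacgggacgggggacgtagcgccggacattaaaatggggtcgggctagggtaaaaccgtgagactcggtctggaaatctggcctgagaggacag

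A match to these letters is a description of the sequence and shows neither a bound site nor a cause of any level reported here. The plot of element positions gives all 10 windows on one scale.

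**Figure D1:**
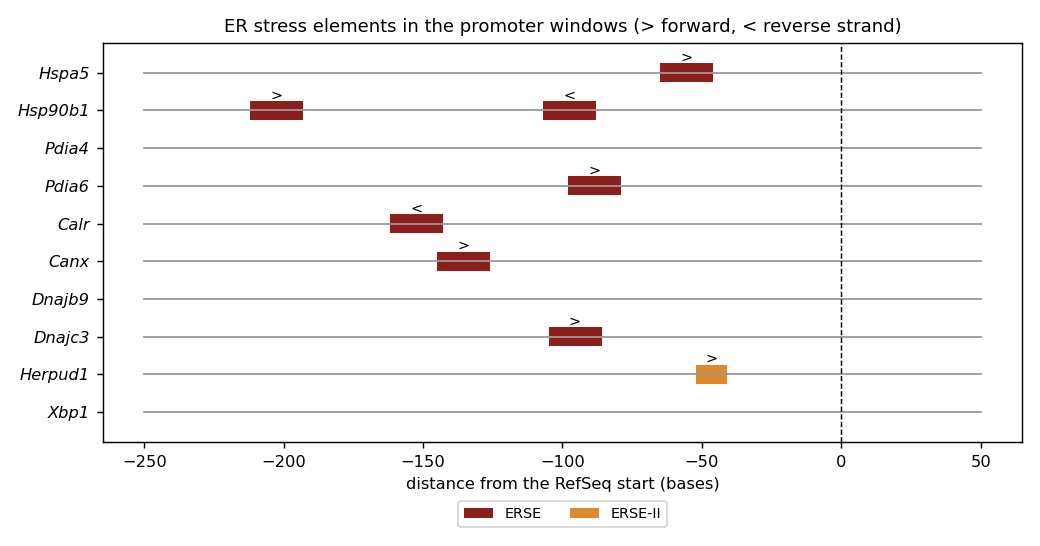
Position of ERSE (dark red) and ERSE-II (orange) matches in the 300-base promoter window of each gene, as the distance in bases from the RefSeq start (dashed line), with the direction of each match. Hsp90b1 holds 2 ERSE, Pdia4, Dnajb9 and Xbp1 hold none, and the matches begin between 212 and 52 bases before the start.

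Levels of different genes were compared per kilobase of exon in GENCODE vM21 (GRCm38). Hsp90b1, which encodes endoplasmin, the ER member of the Hsp90 family (chr10:86690209-86705509), was the highest in ES cells, at 319 CPM per kb in KO and 349 CPM per kb in fl/fl. In KO EBd2 Calr led with 220.1 CPM per kb and Hsp90b1 followed with 203 CPM per kb, while Hsp90b1 led in fl/fl EBd2 with 230 CPM per kb. Calr encodes calreticulin, the lectin chaperone of the ER lumen (chr8:84841850-84846934). It was next after Hsp90b1 in the other 3 groups, and Canx and Hspa5 followed in all 4 groups. Xbp1, Dnajc3, Herpud1 and Dnajb9 were far lower: in fl/fl EBd2 Xbp1 stood at 20.01 CPM per kb, Dnajc3 at 13.8, Herpud1 at 7.48 and Dnajb9 at 5.94. Neighbours in this order had libraries that did not overlap in 36 of 36 pairs over the 4 groups, with annotated lengths taken as exact. The low counts of Herpud1, 134 and 152 reads in KO EBd2 and 133 and 147 in fl/fl EBd2, limit its precision, as do those of Dnajb9 given below.

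The 10 genes differed in how far their level moved over the 4 group means. Xbp1 varied most, 1.82-fold between KO EBd2 and fl/fl EBd2, and Hsp90b1 varied 1.72-fold between KO EBd2 and fl/fl ES cells. Dnajc3 varied least, at 1.07-fold. On the TMM scale, KO EBd2 was the lowest group for 8 of the 10 genes. The exceptions were Calr and Dnajb9, which were lowest in fl/fl EBd2. For Pdia4 and Dnajc3, the KO EBd2 libraries overlapped those of fl/fl EBd2. Without the TMM factors, Hspa5, Hsp90b1, Pdia4, Pdia6, Canx and Dnajc3 were higher in KO EBd2 than in fl/fl EBd2. Their log2 fold changes then ran between 0.03 and 0.21, so KO EBd2 was not their lowest group.

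**Figure D2:**
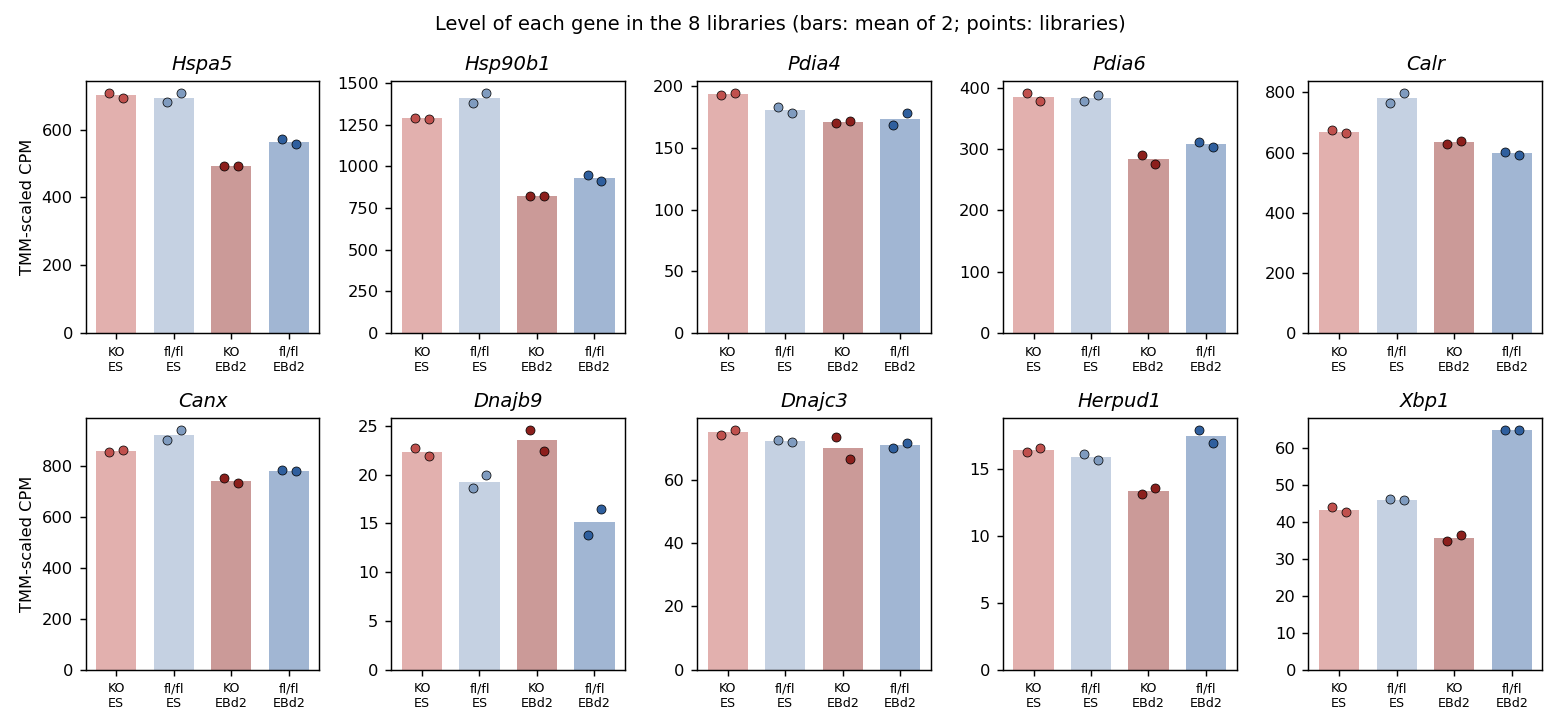
Level of each gene in TMM-scaled CPM in each library (points) and as the mean of 2 libraries (bars, from 0), with KO left of fl/fl at each stage. Xbp1 separates KO EBd2 (35.0 and 36.6 CPM) from fl/fl EBd2 (64.9 and 65.1 CPM), and Dnajb9 has the opposite order there.

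In EBd2 the regulator Xbp1 fell and its known target Dnajb9 rose in KO against fl/fl under either scaling described below. For several chaperones and isomerases the sign depended on that scaling. With TMM factors the chaperones and isomerases differed by less than 15% in level. Of the 10 genes, 2 were higher and 5 lower, where 62.2% of all tested genes were called in either direction (30.7% higher and 31.5% lower), so the share of calls is near that of all genes. Their median log2 fold change was -0.10, and that of all tested genes was 0.00.

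Xbp1 (chr11:5520659-5525893, plus strand) had 35.0 and 36.6 CPM in KO EBd2, against 64.9 and 65.1 CPM in fl/fl EBd2. Both KO libraries lay below both fl/fl libraries, and the KO level was 55.1% of the fl/fl level. The log2 fold change was -0.86 ± 0.06 (SE, n = 2 libraries a group; adjusted p = 1.68e-07 by edgeR). This call held in all 18 alternative analyses.

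Dnajb9 encodes ERdj4, a J-domain cochaperone of BiP that takes part in ER-associated degradation and in holding IRE1 inactive (chr12:44205559-44210326, minus strand). It had 24.6 and 22.45 CPM in KO EBd2, against 13.8 and 16.5 CPM in fl/fl EBd2. The groups did not overlap and the KO level was 1.54 times the fl/fl level, with a log2 fold change of 0.63 ± 0.11 (adjusted p = 0.000395), also called in all 18 alternatives. The counts behind it were 251 and 251 reads in KO EBd2, against 102 and 143 reads in fl/fl EBd2. In the bulk RNA of an aggregate, fewer cells of a type and less RNA per cell cannot be told apart.

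Among the lumenal chaperones, Hspa5 (chr2:34771970-34777547) had 493 and 492 CPM in KO EBd2, against 571.5 and 557 CPM in fl/fl EBd2. Hsp90b1 had 821 and 819 CPM in KO EBd2, against 945 and 909.7 CPM in fl/fl EBd2. Groups did not overlap for either gene. The log2 fold change was -0.20 ± 0.04 for Hspa5 (adjusted p = 0.000493) and -0.18 ± 0.04 for Hsp90b1 (adjusted p = 0.00113). Hsp90b1 shares 10.3% of its exon bases with an antisense gene, 1810014B01Rik, which had 389 counts in all, against 149211 for Hsp90b1.

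Pdia6, a protein disulfide isomerase of the lumen (chr12:17266545-17284770), had 291 and 275 CPM in KO EBd2, against 312 and 304 CPM in fl/fl EBd2. Its log2 fold change of -0.12 ± 0.04 passed the test (adjusted p = 0.0212). That call was lost with a mean of at least 5 CPM (-0.04, adjusted p = 0.335), with libraries thinned (0.0761) and in a fit of those 2 groups alone (0.0906). Without KO EBd2 lot 2 Pdia6 stood at -0.08, and without fl/fl EBd2 lot 1 at -0.11. Pdia4, another isomerase (chr6:47796141-47813430), had 170 and 172 CPM in KO EBd2, against 168.5 and 178 CPM in fl/fl EBd2, and its groups overlapped (log2 fold change -0.02 ± 0.04, adjusted p = 0.66).

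Calreticulin and calnexin, the lectin chaperones that hold glycoproteins during folding, did not share a direction. Calr had 629 and 638.5 CPM in KO EBd2, against 602 and 593 CPM in fl/fl EBd2, and was called higher at a log2 fold change of 0.09 ± 0.03 (adjusted p = 0.049). With any one of 7 of the 8 libraries left out, all but fl/fl ES lot 2, Calr missed the threshold, with adjusted p values up to 0.175 without KO EBd2 lot 2. Canx, the membrane-bound calnexin (chr11:50293961-50325673), had 749.8 and 732 CPM in KO EBd2, against 784 and 778 CPM in fl/fl EBd2, and was not called (-0.08 ± 0.04, adjusted p = 0.0786).

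Herpud1 encodes HERP, a membrane protein that organises the ER-associated degradation complex (chr8:94386438-94395377). It had 13.1 and 13.6 CPM in KO EBd2, against 17.9 and 17.0 CPM in fl/fl EBd2. Both KO libraries were lower, at 76.7% of the fl/fl level (-0.38 ± 0.10, adjusted p = 0.00471). Dnajc3, which encodes a J-domain cochaperone of BiP that also inhibits PERK (chr14:118937976-118981697), had 73.6 and 66.4 CPM in KO EBd2, against 70.0 and 71.5 CPM in fl/fl EBd2. Its groups overlapped (-0.02 ± 0.06, adjusted p = 0.787).

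The direction of several of these changes rests on the scaling between libraries. TMM factors were 1.103 and 1.113 in KO EBd2, against 0.944 and 0.949 in fl/fl EBd2. Without them, on library sizes only, the median of all tested genes moved by 0.227 on the log2 scale in EBd2, and 67.9% in place of 49.3% of all calls were higher in KO. Of the 10 genes, 6 were then called higher (Pdia4, Pdia6, Calr, Canx, Dnajb9 and Dnajc3) and 1, Xbp1, lower, at 0.85 for Dnajb9 and -0.63 for Xbp1. Hspa5 stood at 0.03 (adjusted p = 0.436), Hsp90b1 at 0.05 (0.218) and Herpud1 at -0.15 (0.262). As a share of all counts, the 10 genes together held 0.364% and 0.363% in KO EBd2, against 0.335% and 0.331% in fl/fl EBd2. The opposite order held for the sum of TMM-scaled CPM, 3300 and 3266 in KO EBd2 against 3550 and 3490 in fl/fl EBd2.

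**Figure D3:**
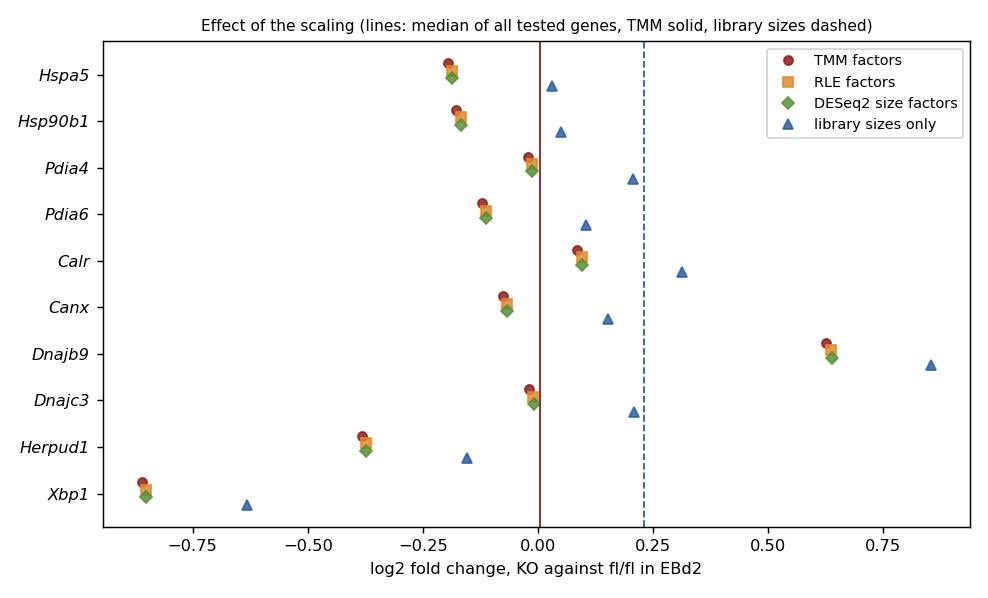
Log2 fold change of each gene in KO against fl/fl EBd2 under 4 scalings, with the median of all tested genes as a solid line for TMM factors and a dashed line for library sizes only. Xbp1 stays below and Dnajb9 above zero under each, Hspa5 moves between -0.20 and 0.03, and the points of TMM, RLE and DESeq2 nearly coincide.

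In ES cells the genes called between KO and fl/fl were both lectin chaperones and endoplasmin. Of the 10 genes, 0 were called higher and 3 lower, Calr, Hsp90b1 and Canx, where 23.7% of all tested genes were called (10.9% higher and 12.8% lower). On library sizes only, Pdia4 and Dnajb9 were called higher and Calr lower. The median log2 fold change of the 10 genes was 0.01, and that of all tested genes was 0.00.

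Calr had 673 and 665 CPM in KO ES cells, against 766 and 798 CPM in fl/fl ES cells. Both KO libraries were below both fl/fl libraries, with a log2 fold change of -0.22 ± 0.03 (adjusted p = 0.000726) that was called in all 18 alternatives. Hsp90b1 had 1292 and 1284 CPM in KO ES cells, against 1377 and 1439 CPM in fl/fl ES cells (-0.13 ± 0.03, adjusted p = 0.0195). Hsp90b1 lost its call without KO ES lot 1 (adjusted p = 0.0958), without KO ES lot 12 (0.104) and without fl/fl ES lot 2 (0.194), and on library sizes only it stood at -0.06 (0.225). Canx had 852 and 863 CPM in KO ES cells, against 900.2 and 941 CPM in fl/fl ES cells (-0.10 ± 0.03, adjusted p = 0.0476), and was called in 5 of 18 alternatives. Each of the 8 libraries, when left out, took the Canx call away, with adjusted p values between 0.0519 without KO EBd2 lot 2 and 0.359 without fl/fl ES lot 2.

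Hspa5 had 707 and 694 CPM in KO ES cells, against 681 and 708 CPM in fl/fl ES cells, and its groups overlapped (0.01 ± 0.03, adjusted p = 0.8). Xbp1 had 44.0 and 42.7 CPM in KO ES cells, against 46.2 and 46.0 CPM in fl/fl ES cells, without overlap but also without a call (-0.09 ± 0.05, adjusted p = 0.193). Dnajb9 had 22.7 and 21.9 CPM in KO ES cells, against 18.6 and 19.9 CPM in fl/fl ES cells (0.21 ± 0.08, adjusted p = 0.0853). Dnajb9 was called higher in ES cells on library sizes only (adjusted p = 0.0287), with a mean of at least 5 CPM (0.0426) and in a fit of those 2 groups alone (0.0404). Otherwise neither Xbp1 nor Dnajb9 passed the threshold in ES cells. Pdia4 missed it narrowly, with 193 and 194.6 CPM in KO ES cells against 183 and 178.5 CPM in fl/fl ES cells (0.10 ± 0.03, adjusted p = 0.0504), and passed without fl/fl EBd2 lot 1 (adjusted p = 0.0306) or lot 12 (0.031). Pdia6, Dnajc3 and Herpud1 had log2 fold changes between 0.01 and 0.05, none of them called.

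**Figure D4:**
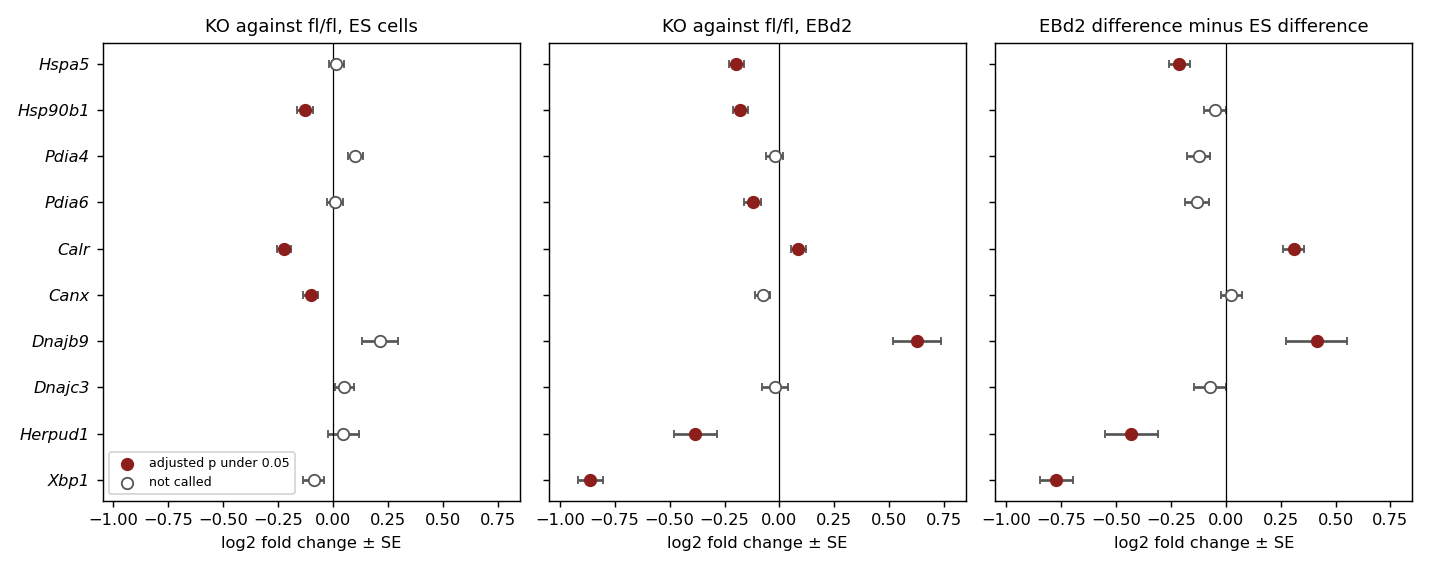
Log2 fold change with its SE (horizontal bars) of each gene in KO against fl/fl in ES cells (left) and in EBd2 (middle), and the EBd2 difference minus the ES cell difference (right). Filled points passed an adjusted p of 0.05. Xbp1 lies at -0.09 in ES cells and -0.86 in EBd2, and Dnajb9 at 0.21 and 0.63.

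Whether the genotype difference itself differed between the stages was tested as the interaction of genotype and stage. It was called for 5 of the 10 genes, 2 of them higher and 3 lower, where 48% of all tested genes were called (22.4% higher and 25.7% lower). The share of calls among the 10 genes is near that of all genes. For Xbp1 the EBd2 difference minus the ES cell difference was -0.77 ± 0.07 on the log2 scale (adjusted p = 7.45e-06). For Calr it was 0.31 ± 0.05 (adjusted p = 0.000248), and Calr was lower in KO ES cells and higher in KO EBd2. Both were called in all 17 alternatives.

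For Herpud1 the interaction was -0.43 ± 0.12 (adjusted p = 0.012), for Hspa5 -0.21 ± 0.05 (0.00379) and for Dnajb9 0.41 ± 0.14 (0.0273). Herpud1 and Dnajb9 lost their calls with DESeq2, at an adjusted p of 0.107 for Herpud1 and 0.0571 for Dnajb9. The Hspa5 value went to -0.05 (adjusted p = 0.362) and the Herpud1 value to -0.27 (0.106) with library sizes only. Dnajb9 lost its call without KO ES lot 12 (adjusted p = 0.0724), fl/fl ES lot 2 (0.0842), KO EBd2 lot 1 (0.0973) or fl/fl EBd2 lot 1 (0.142). Hsp90b1, Pdia4, Pdia6, Canx and Dnajc3 had interactions between -0.13 and 0.03, none of them called. Pdia6 passed without KO EBd2 lot 1 (adjusted p = 0.027), and Pdia4 without fl/fl EBd2 lot 1 (0.0301). Canx passed at 0.18 (0.00658) on library sizes only.

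Along differentiation, Hsp90b1, Hspa5, Pdia6 and Canx were lower in EBd2 than in ES cells in both genotypes. In KO, 0 of the 10 genes were higher and 7 lower in EBd2, where 64.8% of all tested genes were called (31.7% higher and 33.1% lower). In fl/fl, 1 was higher and 6 lower, where 59% of all tested genes were called (28.9% higher and 30.1% lower). Fibroblast markers also fell between the stages. In KO, 0 of 15 tested were higher and 11 lower in EBd2, with a median log2 fold change of -1.28. In fl/fl, 1 was higher and 12 lower, with a median of -2.83. Their part in the stage differences of the 10 genes was not tested. The 2 contrasts use different libraries, and the log2 fold changes of EBd2 against ES cells are given side by side for each gene.

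Hsp90b1 fell by 0.65 in KO (adjusted p = 3.08e-08) and by 0.60 in fl/fl (7.17e-08), and Hspa5 fell by 0.51 in KO (1.66e-07) and by 0.30 in fl/fl (1.68e-05). Pdia6 fell by 0.44 in KO (1.21e-06) and by 0.31 in fl/fl (3.1e-05), and Canx by 0.21 in KO (0.000213) and by 0.24 in fl/fl (0.000112). Calr fell by 0.39 in fl/fl (1.77e-06) and was at -0.08 in KO (0.0597). Without fl/fl ES lot 2, fl/fl EBd2 lot 1 or fl/fl EBd2 lot 12, Calr passed in KO, with adjusted p values of 0.0472, 0.0378 and 0.0371.

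Xbp1 moved in opposite directions, lower in EBd2 than in ES cells by 0.28 in KO (adjusted p = 0.000874) and higher by 0.49 in fl/fl (7.38e-06). Dnajb9 fell by 0.34 in fl/fl (adjusted p = 0.0153) and stood at 0.07 in KO (0.481), and its fl/fl call was lost without fl/fl ES lot 2 (0.0693) or fl/fl EBd2 lot 1 (0.149). Herpud1 fell by 0.30 in KO (0.00849) and stood at 0.13 in fl/fl (0.281). Its KO call was lost with DESeq2 (adjusted p = 0.0849) and with lots 1, 2 and 12 as a block (0.0521). Pdia4 fell by 0.18 in KO (0.00101) and stood at -0.06 in fl/fl (0.212), and Dnajc3 was not called in either genotype, though it passed in KO without KO EBd2 lot 1 (0.0157). On library sizes only, the all-gene median of the KO contrast moved by 0.148, and Pdia4, Canx, Herpud1 and Xbp1 lost their calls there while Dnajb9 passed at 0.22 (adjusted p = 0.0453).

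The other genes of the pathway were counted over lists of ER and folding genes, in KO against fl/fl EBd2 beside the 62.2% of all tested genes that were called. Of 33 other ER chaperones and folding enzymes, 18 were higher and 5 lower in KO EBd2, with a median log2 fold change of 0.28. Pdia3, the isomerase that works with calnexin and calreticulin, had 689 and 700.4 CPM in KO EBd2, against 469.7 and 453 CPM in fl/fl EBd2 (0.59 ± 0.03, adjusted p = 4.83e-08). Pdia5, a further isomerase, rose by 1.18 ± 0.08 (1.41e-07) and the sulfhydryl oxidase Qsox1 by 1.62 ± 0.13 (8.4e-07). Dnajb11, a J-domain cochaperone of BiP, rose by 0.30 ± 0.05 (0.000351).

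Hyou1, an ER chaperone of the Hsp110 family and a nucleotide exchange factor for BiP, had 189.8 and 201 CPM in KO EBd2, against 258 and 262 CPM in fl/fl EBd2 (-0.41 ± 0.04, adjusted p = 2.49e-06). Manf, a secreted ER stress protein that binds BiP, stood at -0.40 ± 0.05 (4.41e-05). Sdf2l1, which keeps BiP clients soluble with ER J-domain proteins, rose by 0.39 ± 0.13 (0.0194), a call lost without KO EBd2 lot 1 (0.151), fl/fl EBd2 lot 1 (0.0722) or fl/fl EBd2 lot 12 (0.0825). Creld2, an ER stress target that also holds an ERSE in its window, was at 0.15 ± 0.06 (0.0659), and was called higher on library sizes only (0.000198), with a mean of at least 5 CPM (0.00446), with libraries thinned (0.0385) and when only those 2 groups were fitted (0.0474). So the list did not move as 1 group, with Pdia3 and Dnajb11 up and Hyou1 and Manf down in the same libraries.

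Translocation and signal peptide cleavage had 9 higher and 3 lower of 18, led by the translocon-associated subunits Ssr1 (0.42 ± 0.04, adjusted p = 1.09e-06), Ssr4 (0.72 ± 0.08, 1.6e-05) and Ssr3 (0.29 ± 0.04, 2.48e-05). ER to Golgi trafficking had 12 higher and 3 lower of 20. Its smallest p values belonged to the 3 receptors that return KDEL proteins such as BiP, endoplasmin and calreticulin to the ER. Kdelr3 had 41.0 and 43.9 CPM in KO EBd2, against 11.3 and 9.0 CPM in fl/fl EBd2 (2.08 ± 0.10, 1.48e-08). Kdelr2 rose by 0.66 ± 0.06 (1.61e-06) and Kdelr1 by 0.60 ± 0.06 (3.19e-06). N-glycosylation and glucosidases had 5 higher and 2 lower of 12, among them the oligosaccharyltransferase subunit Stt3a (0.35 ± 0.04, 6.59e-06), the glucosidase II subunit Prkcsh (0.36 ± 0.04, 2.42e-05) and glucosidase I, Mogs (-0.62 ± 0.08, 2.71e-05). The last 2 trim the glucose residues that calnexin and calreticulin read.

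ER-associated degradation had 6 higher and 10 lower of 29. The membrane ubiquitin ligase Marchf6 fell by 0.78 ± 0.05 (adjusted p = 5.21e-08), while Selenos, a membrane adaptor, rose by 0.54 ± 0.09 (0.000219). Fbxo2 and Fbxo6, the F-box proteins that join SKP1 to glycoproteins of the degradation pathway, stood at -0.37 ± 0.18 (0.0954) and 0.26 ± 0.13 (0.0959), neither of them called. Fbxo6 was called higher on library sizes only (0.49, adjusted p = 0.00648) and with a mean of at least 5 CPM (0.34, 0.0295). Without fl/fl EBd2 lot 1 Fbxo2 stood at -0.57, and without KO EBd2 lot 1 Fbxo6 stood at 0.39. On library sizes only the degradation list had 16 higher and 2 lower, so its direction rests on the scaling.

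Among 12 tested sensors and transducers, 4 were higher and 5 lower, and on library sizes only 5 were higher and 4 lower. Atf6, the ATF6 sensor, rose by 0.30 ± 0.07 (adjusted p = 0.00406), a call lost without fl/fl EBd2 lot 12 (0.062). Its paralog Atf6b fell by 0.88 ± 0.07 (9.61e-07). The Golgi proteases that cut ATF6 fell, Mbtps1 by 0.50 ± 0.04 (1.28e-06) and Mbtps2, with 33.5 and 30.05 CPM in KO EBd2 against 72.1 and 70.5 CPM in fl/fl EBd2, by 1.17 ± 0.07 (4.62e-08). The related membrane-bound transcription factors Creb3l2 and Creb3 rose by 1.84 ± 0.09 (1.49e-08) and 1.27 ± 0.10 (4.24e-07). Ern1, which encodes IRE1 alpha, was called lower at -0.33 ± 0.12 (0.0264). That call was lost on library sizes only (-0.11, adjusted p = 0.458), with DESeq2 (0.0829) and with a mean of at least 5 CPM (0.0663). It was also lost with lots 1, 2 and 12 as a block (0.125) and in a fit of those 2 groups alone (0.0629). Without fl/fl EBd2 lot 12 Ern1 stood at -0.20, and without KO EBd2 lot 1 at -0.27. Eif2ak3, which encodes PERK, was at 0.08 ± 0.09 (0.463), and was called higher on library sizes only (0.30, adjusted p = 0.00988).

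In the PERK arm, 3 of 15 genes were higher and 5 lower, a balance that turned to 5 higher and 3 lower on library sizes only. With TMM factors the share called was 53.3%, beside 62.2% of all tested genes. Atf4 had 92.1 and 84.96 CPM in KO EBd2, against 225.5 and 213 CPM in fl/fl EBd2, and the groups did not overlap (-1.31 ± 0.05, adjusted p = 2.74e-09). Atf3 and Atf5, transcription factors of the same stress pathway, rose by 3.07 ± 0.16 (2.23e-08) and 1.48 ± 0.13 (1.28e-06). Ddit3, which encodes CHOP, was at -0.31 ± 0.17 (0.131). Of 6 transcripts that IRE1 is known to cut in other cells, 50% were called, beside 62.2% of all tested genes. Of these 6, 3 were higher and 0 lower. They were Sparc (1.89 ± 0.04, 2.65e-11), Col6a1 (3.59 ± 0.14, 2.43e-09) and Pdgfrb (1.80 ± 0.26, 0.000107), all genes of matrix-producing or mesenchymal cells, and Pdgfrb is also in the fibroblast marker list.

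Outside the ER, of 29 cytosolic and mitochondrial chaperones, 6 were higher and 19 lower in KO EBd2, with a median of -0.36, and 9 higher and 15 lower on library sizes only. Hsp90ab1, the cytosolic Hsp90, had 3283 and 3273 CPM in KO EBd2, against 6668 and 6678 CPM in fl/fl EBd2 (-1.02 ± 0.03, adjusted p = 5.42e-10). Hspa8, the constitutive cytosolic Hsp70, fell by 0.63 ± 0.03 (1.49e-08), and the small heat shock protein Hspb1 rose by 1.26 ± 0.06 (6.55e-09). The fall of Hsp90b1 in the same libraries was -0.18, and the difference between the ER and cytosolic members was not tested.

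In ES cells the lists are set against the 23.7% of all tested genes that were called. The other ER chaperones had 8 higher and 1 lower of 33, of which the oxidase Ero1l was the lower one (-0.32 ± 0.05, adjusted p = 0.000651) and the ER stress protein Serp1 was higher (0.22 ± 0.04, 0.00318). Translocation had 0 of 18 called by edgeR, and 5 higher with library sizes only. The degradation list had 0 higher and 5 lower of 29 (2 higher and 1 lower on library sizes only), with Ubxn4 at -0.23 ± 0.04 (0.00126). The PERK arm had 3 higher and 6 lower of 15, among them Ddit4 (-0.63 ± 0.07, 0.000103), Sesn2 (-0.34 ± 0.04, 0.000339) and Ddit3 (-0.44 ± 0.09, 0.00501), the last not called without fl/fl ES lot 2 (0.0699). Atf6b was lower in KO ES cells too (-0.30 ± 0.06, 0.0033).

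**Figure D5:**
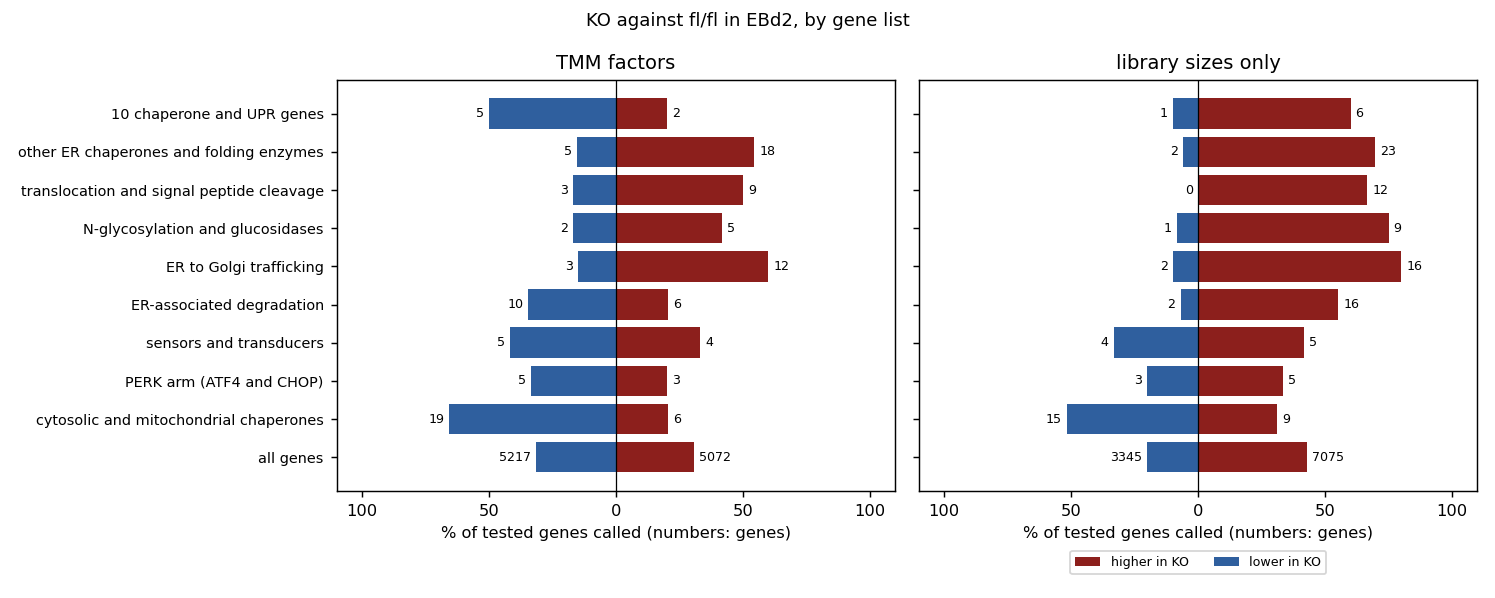
Share of the tested genes of each list called higher (right of zero, dark red) or lower (left of zero, blue) in KO against fl/fl EBd2, with the number of genes at each bar, for TMM factors (left) and library sizes only (right). The 10 genes go from 2 higher and 5 lower to 6 higher and 1 lower, while the other ER chaperones have more higher than lower genes in both panels (18 and 5, and 23 and 2).

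The 39 windows with the element belong to 37 symbols, of which 20 were found under the same name among the tested genes. Ero1b, which the count table holds under the name Ero1lb, was missed by this match and is not in these counts. Of the 20, 4 were higher and 8 lower in KO EBd2 (median -0.13), beside 62.2% of all tested genes called. In KO ES cells 3 of the 20 were higher and 5 lower (median 0.01), beside 23.7%. The share of calls in EBd2 is near that of all genes. The 14 that are not among the 10 genes had 3 higher and 5 lower in EBd2. With library sizes only the 20 genes had 10 higher and 5 lower in EBd2.

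Markers of other cell types moved with the genotype in EBd2. Of 18 endoderm markers, a lineage with heavy secretion of basement membrane, 17 were tested and 16 were higher and 1 lower in KO EBd2. Their summed level was 4307 and 4207 CPM in KO EBd2, against 1250 and 1349 CPM in fl/fl EBd2, with Col4a1 at a mean of 1294 CPM in KO EBd2 and 245 CPM in fl/fl EBd2. Of 15 tested fibroblast markers, 13 were higher and 0 lower in KO EBd2, with sums of 1335 and 1233 CPM in KO EBd2 against 873 and 931 CPM in fl/fl EBd2. The epiblast markers were lower for 6 of 6, and the 9 pluripotency markers had 3 higher and 5 lower. None of these lists had a gene at 0 in all 8 libraries. The share of reads from mitochondrial genes was 3.15% and 3.24% in KO EBd2, against 2.69% and 2.28% in fl/fl EBd2. The part of these differences in the levels of the chaperones, Xbp1 and Dnajb9 was not tested.

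In ES cells the endoderm sums were 846 and 885 CPM in KO, against 852 and 827 CPM in fl/fl. The fibroblast sums were 2779 and 3006 CPM in KO, against 3004 and 2877 CPM in fl/fl. Fn1 made up most of the fibroblast sums, with means of 1854 CPM in KO and 2050 CPM in fl/fl, and was not called. Of 15 tested fibroblast markers 6 were higher and 0 lower in KO ES cells, and of 17 endoderm markers 1 was higher and 3 lower. The 9 pluripotency markers had 0 higher and 6 lower, with sums of 3660 and 3622 CPM in KO against 4205 and 4220 CPM in fl/fl, and 2 of 6 epiblast markers were lower. Mitochondrial genes took 2.43% and 2.42% of reads in KO ES cells, against 1.76% and 1.73% in fl/fl ES cells, and the part of these values and of the markers in the ES cell results was not tested.

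The profile of Hspa5 over the 8 libraries was compared with that of 9593 genes with a mean of at least 10 CPM, as the root mean square difference of log2 CPM after centring each gene on its mean. The 5 most like it were Svip at 0.0242, Rpp40 at 0.0340, Spg21 at 0.0360, Pdia6 at 0.0360 and Pigs at 0.0370. Svip encodes a small inhibitor of ER-associated degradation and Pigs a subunit of the ER transamidase that attaches GPI anchors. Pdia6 was thus the 4th gene by likeness, whereas Canx was at rank 478, Hsp90b1 at 683 and Xbp1 at 5773. The genes most like Herpud1 were Enah at 0.0325, Polr2m at 0.0361, Arid4b at 0.0365, Parn at 0.0372 and Ggps1 at 0.0402, none of them from the 10. The 8 libraries share 4 groups, so these likenesses describe a profile of few levels.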

How the data were processed

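The authors deposited raw read counts per gene symbol for all 8 libraries in 1 table, unnormalized. The submitters' processing notes name Trim Galore 0.6.7, GRCm38 and mm10. No source used here gives the aligner, counter, annotation or strand setting. Poly(A) RNA was prepared with spin columns and magnetic beads, per the labels' protocols.

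The counts were tested by edgeR 4.0.16 in R 4.3.3 (filterByExpr with the 4 groups, TMM factors, glmQLFit and glmQLFTest, two-sided, Benjamini-Hochberg over 16542 genes, threshold 0.05). One model with 4 group means was fitted to 8 libraries, which left 4 residual degrees of freedom, with a common biological coefficient of variation of 3.4%. The SE was taken from the fold change and its F statistic. The fit was tested on simulated data. No 2 columns were identical, and replicate libraries differed by 2.12 to 2.81 times the chi-square of counting error alone.

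Of the table's symbols, 34715 (95.8%) matched GENCODE vM21 once, all 10 genes included. Sequences are from RefSeq (GRCm38.p6).

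The members and lists were chosen with earlier results of these data known. The text names all 10 genes, Skp1a, up to 3 genes a list called in EBd2 and up to 2 in ES cells by smallest p, 12 genes of interest, the most abundant markers and the 5 genes most like Hspa5 or Herpud1. Alternatives were no TMM factors, RLE factors, DESeq2 1.42.0, other filters, thinning, the lot as a block, no mitochondrial genes, fits of 2 groups and each library left out. Protein features were not used here, and 1 gene that this rule names is not reported here.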

Additional observations from a re-analysis of the deposited data

Results flagged for a closer look

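For 5 of the 10 genes the KO against fl/fl difference itself differed between EBd2 and ES cells, by edgeR's test of the interaction of genotype and stage, adjusted over all tested genes. The EBd2 difference minus the ES cell difference was -0.771 on the log2 scale for Xbp1 (SE 0.0743, adjusted p = 7.45e-06), with both KO libraries below both fl/fl libraries at each stage. It was 0.31 for Calr (SE 0.0475, adjusted p = 0.000248), which was lower in 2 of 2 KO libraries in ES cells and higher in 2 of 2 in EBd2. It was 0.414 for Dnajb9 (SE 0.137, adjusted p = 0.0273) and -0.429 for Herpud1 (SE 0.12, adjusted p = 0.012). For Hspa5 it was -0.21 (SE 0.0482, adjusted p = 0.00379). The share of all tested genes called in this test was 48%, and 5 of 10 is near that share. Dnajb9 and Herpud1 lost their calls with DESeq2 and with lots 1, 2 and 12 as a block. Hspa5 and Herpud1 lost theirs with library sizes only. The marker sums given for endoderm differ between the same groups, and their part in these differences was not tested.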

How the results depend on the processing

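Over 890 values of the 10 genes under the alternatives, 784 kept their sign and side of the threshold, 52 lost a call and 21 gained one without a change of sign. A further 27 changed sign without a call on either side, 6 of them with library sizes only. The 6 changes of sign with a call on either side came with library sizes only in KO against fl/fl EBd2: Hspa5 0.031, Hsp90b1 0.050, Pdia4 0.21, Pdia6 0.11, Canx 0.15 and Dnajc3 0.21, and outside the 10 genes Ubxn4 0.14, Vcp 0.10, Ganab 0.11 and Lonp1 0.12. TMM assumes that most genes do not differ, and which scaling is right was not tested. With library sizes only, 4 of the 10 genes were called in EBd2 against ES cells in KO, not 7. In ES cells, KO against fl/fl gave 5 of the 10 genes, not 3, in a fit of those 2 groups alone. DESeq2 called 3, not 5, in the interaction, without Dnajb9 and Herpud1, and the cause was not tested. Thinning all libraries to the shallowest left 2023 genes in place of 3926 in the ES comparison, where depth limits calls.

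The groups compared share only lot 1, whose deviations from the group means correlated at -0.022 to 0.018 over 16542 genes. With 2 libraries a group, each deviation also holds the other library and counting error. These values therefore do not settle whether the lots pair the libraries. With the lot as a replicate block, ES cells gave 1 of the 10 genes and 2236 of all genes, and the interaction 3 of the 10, also without Dnajb9 and Herpud1. With each library left out in turn, ES cells gave 1 to 3 of the 10 genes (1 without KO ES lot 1, KO ES lot 12 or fl/fl ES lot 2) and 1909 to 3958 of all genes (2226 without KO ES lot 1, 2233 without KO ES lot 12, 2036 without fl/fl ES lot 1, 1909 without fl/fl ES lot 2). EBd2 gave 5 to 7 of the 10 and the interaction 4 to 5.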
